A study of Mus musculus with 4 samples.

Results

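The 10 genes described here are Fos, Fosb, Jun, Junb, Egr1, Egr3, Atf3, Ier2, Dusp1 and Nr4a1, commonly called immediate early genes. They were taken by symbol, not by a cut on their values, from the 31053 genes counted in live CD45+ cells (leukocytes) sorted from mouse skin wounds. The choice was made with earlier results of these data known. All 10 symbols were found in each of the 4 libraries. The wounds were 3 mm punch wounds in 8-week-old male mice. Angptl4+/+ mice were wild-type C57BL6/J, and Angptl4-/- mice lacked Angptl4, which encodes a secreted inhibitor of lipoprotein lipase, in the whole body. Each genotype gave 1 library at 1 day post-wounding (dpw) and 1 library at 5 dpw. The number of mice behind a library is not given in the sources used here, and with 1 library per condition no difference between conditions could be tested. Every interval printed is a 95% interval that covers counting error only.

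Immediate early genes need no new protein for their transcription and are switched on by kinase cascades that act on factors already bound to their promoters, so their short-lived mRNAs appear and fade within a short time of a stimulus. Fos and Fosb encode proteins that pair with the products of Jun and Junb in the transcription factor AP-1. Egr1 and Egr3 encode zinc finger factors, Atf3 a stress-induced member of the ATF/CREB family, Nr4a1 an orphan nuclear receptor and Ier2 a small nuclear protein, while Dusp1 is not a transcription factor but a phosphatase that switches off MAP kinases. In leukocytes these genes respond to adhesion, cytokines and microbial products. They also respond to tissue dissociation. Wound tissue of all 4 libraries was digested with collagenase for 1 h in a heated water bath and then stained on ice, so induction in the wound and induction during dissociation cannot be told apart, and the digestion was shared by every comparison below.

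Angptl4 was counted first as a check of the labels. It had 47 UMIs (unique molecular identifiers, each standing for 1 captured mRNA molecule) at 1 dpw and 78 at 5 dpw in the Angptl4+/+ libraries, and 0 in both Angptl4-/- libraries. Of 20069 barcodes, 19827 passed a filter of at least 200 genes and at most 10% mitochondrial UMIs, with 4738 to 5346 cells and 26898397 to 32815888 UMIs per library in those cells. Any pair of libraries shared between 4 and 15 cell barcodes. Clustering gave 14 clusters, which marker lists joined into neutrophil-like cells (6 clusters, 2703 to 3890 cells per library), macrophage-like cells (2 clusters, 590 to 1449 cells), monocyte-like cells (126 to 151), dendritic cell-like cells (117 to 418), NK cell/T cell-like cells (36 to 226) and B cell-like cells (2 to 27). The 10 genes were left out of the genes used for clustering. Levels below (CPM) give the UMIs that a gene gathered over all cells of a class in 1 library for every 1000000 UMIs the class held there. Their intervals are exact Poisson intervals. Levels are compared only within a gene, and in the summed level of the 10 each gene weighs by its UMIs.

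The loci lie on 9 chromosomes (build GRCm38, GENCODE vM21 annotation). Fos spans 85473890 to 85477273 of chromosome 12, Fosb 19302696 to 19310051 of chromosome 7, and Egr3 70077203 to 70082614 of chromosome 14. Jun spans 95049034 to 95052222 of chromosome 4 and is overlapped on the opposite strand by Junos. Chromosome 8 holds Junb, from 84974484 to 84978718 and overlapped on the opposite strand by Prdx2, and Ier2, from 84661331 to 84662852. Atf3 spans 191170296 to 191218039 of chromosome 1, Dusp1 26505590 to 26562128 of chromosome 17 and Nr4a1 101254269 to 101274795 of chromosome 15, and Egr1 lies on a further chromosome. Jun, Junb and Ier2 are single-exon genes in their principal transcripts. The annotated span of Dusp1 reaches far upstream of its main exons and overlaps 4 other annotated genes. AC122252.1 and AC122252.4 lie on the same strand and Ergic1 and Gm8225 on the opposite strand. The part of this overlap in the Dusp1 counts was not tested.

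RefSeq promoter sequences (GRCm38.p6) were at hand for 7 of the genes, Fos, Fosb, Jun, Junb, Atf3, Dusp1 and Nr4a1. The 250 bases before the RefSeq start were searched on both strands for the core of the cAMP response element, TGACG, to which ATF/CREB factors bind. It was found in 6 of the 7, all but Jun, and in 17.8% of the 32851 RefSeq promoters of this length. The full palindrome TGACGTCA, which contains 2 overlapping matches to TGACG, was found only in Dusp1 of the 7 and in 1.55% of all promoters. The AP-1 motif TGANTCA was found in 0 of 7 against 6.75% of all promoters, the EGR motif GCGNGGGCG in Fosb and Nr4a1 against 4.70%, and the CArG box bound by serum response factor in 0 of 7 against 1.47%. A match describes letters in a window and is not evidence of binding. Nor does the lack of a match show that a site is absent. Bases farther upstream and other spellings of a site were not searched. The promoters printed below were chosen to show the range, Fos and Nr4a1 with 2 and 4 matches, Dusp1 with the palindrome and Jun with none, in lower case with TGACG or its complement CGTCA in capitals.
Fos (chr12:85473640-85473889, plus strand): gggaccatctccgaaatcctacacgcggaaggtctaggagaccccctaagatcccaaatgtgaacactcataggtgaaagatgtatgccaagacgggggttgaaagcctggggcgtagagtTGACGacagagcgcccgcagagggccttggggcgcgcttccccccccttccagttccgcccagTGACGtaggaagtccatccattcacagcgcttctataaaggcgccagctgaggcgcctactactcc
Nr4a1 (chr15:101266596-101266845, plus strand): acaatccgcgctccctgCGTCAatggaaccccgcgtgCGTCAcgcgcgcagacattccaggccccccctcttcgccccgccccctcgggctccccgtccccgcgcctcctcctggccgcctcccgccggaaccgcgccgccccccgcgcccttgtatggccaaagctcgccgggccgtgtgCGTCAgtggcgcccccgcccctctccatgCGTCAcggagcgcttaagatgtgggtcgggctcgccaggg
Dusp1 (chr17:26508473-26508722, minus strand): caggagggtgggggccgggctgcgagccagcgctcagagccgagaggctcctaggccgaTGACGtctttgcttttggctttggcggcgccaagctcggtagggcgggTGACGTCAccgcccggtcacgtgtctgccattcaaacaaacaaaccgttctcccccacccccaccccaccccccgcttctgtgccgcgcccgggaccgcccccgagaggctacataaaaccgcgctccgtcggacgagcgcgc
Jun (chr4:95052223-95052472, minus strand): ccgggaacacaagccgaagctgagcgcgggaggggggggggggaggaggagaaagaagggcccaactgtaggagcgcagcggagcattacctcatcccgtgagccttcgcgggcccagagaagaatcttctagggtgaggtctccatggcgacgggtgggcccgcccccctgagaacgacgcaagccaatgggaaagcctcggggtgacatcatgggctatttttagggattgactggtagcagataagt

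In Fos the nearer match ended 62 bases before the start, and in Nr4a1 the nearest ended 36 bases before it. The palindrome of Dusp1 ended 136 bases before the start. Levels of each gene across the classes are given next, and a link between the motifs and the levels was not tested.

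Across cell classes, the order of levels was not the same for all genes. By CPM, Junb, Egr1, Egr3 and Dusp1 were highest in neutrophil-like cells in all 4 libraries among the 5 classes with at least 36 cells. Egr1 stood at 1904 CPM in Angptl4+/+ and 1592 CPM in Angptl4-/- neutrophil-like cells at 1 dpw, and at 3416 and 3539 CPM at 5 dpw. In macrophage-like cells the same 4 libraries gave 715, 601, 546 and 367 CPM. Neutrophil-like cells thus carried more Egr1 than any other class, with no overlap of intervals. Egr3 was at 138 and 80.1 CPM in neutrophil-like cells of Angptl4+/+ and Angptl4-/- wounds at 1 dpw and 190.2 and 171 CPM at 5 dpw. Its macrophage-like levels were 18.7, 11.7, 12.5 and 9.29 CPM in the same order. Of the 10 genes Egr3 had the largest gap between these 2 classes in all 4 libraries.

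Nr4a1 had another order. It was highest in monocyte-like cells in all 4 libraries, with 271 CPM (249 to 293) and 268 CPM in Angptl4+/+ and Angptl4-/- wounds at 1 dpw and 448 and 366 CPM at 5 dpw. The neutrophil-like levels were 133, 111, 292 and 198 CPM in the same order. The NK cell/T cell-like level of 241 CPM (187 to 306) in Angptl4+/+ wounds at 1 dpw could not be separated from the monocyte-like one.

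On the CPM scale Fos and Atf3 changed places between the time points. At 1 dpw Fos was highest in macrophage-like cells, at 2309.9 CPM in Angptl4+/+ and 2577 CPM in Angptl4-/- wounds, above the 1460.0 and 1488 CPM of neutrophil-like cells. By 5 dpw the neutrophil-like levels were 4836 and 3588 CPM, above the macrophage-like 2512 and 2362 CPM. Atf3 likewise led in macrophage-like cells at 1 dpw, with 491 and 544 CPM against 326 and 304 CPM in neutrophil-like cells. At 5 dpw it was higher in neutrophil-like cells of Angptl4+/+ wounds, at 583 against 418 CPM. In Angptl4-/- wounds at 5 dpw the 2 classes could not be separated, at 402 CPM (391 to 413) and 388 CPM (373 to 403). The order at 1 dpw depended on scaling. The highest macrophage-like over neutrophil-like log2 ratio of the 10 genes was then 0.66 in Angptl4+/+ and 0.84 in Angptl4-/- wounds. The median gene was at 1.41 and 1.42. Centred on it, all 10 genes, Jun included, were lower in macrophage-like cells.

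Jun, Fosb and Ier2 were highest in neutrophil-like cells at 5 dpw in both genotypes, but not throughout at 1 dpw. Jun stood at 751 and 643 CPM in neutrophil-like cells at 1 dpw, below the macrophage-like 783 and 817 CPM. Fosb reached 726 CPM (629.7 to 834) in NK cell/T cell-like cells of Angptl4+/+ wounds at 1 dpw, above 593 CPM in neutrophil-like cells. Ier2 was likewise highest in those NK cell/T cell-like cells, at 662 CPM against 489 CPM in neutrophil-like cells. These NK cell/T cell-like values rest on 36 cells. Dendritic cell-like cells were low for most of the genes, with the 10 genes together at 4766 to 5213 CPM against 11954 to 24159 CPM in neutrophil-like cells. B cell-like cells had 5 and 2 cells at 1 dpw and are not compared further.

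**Figure D1:**
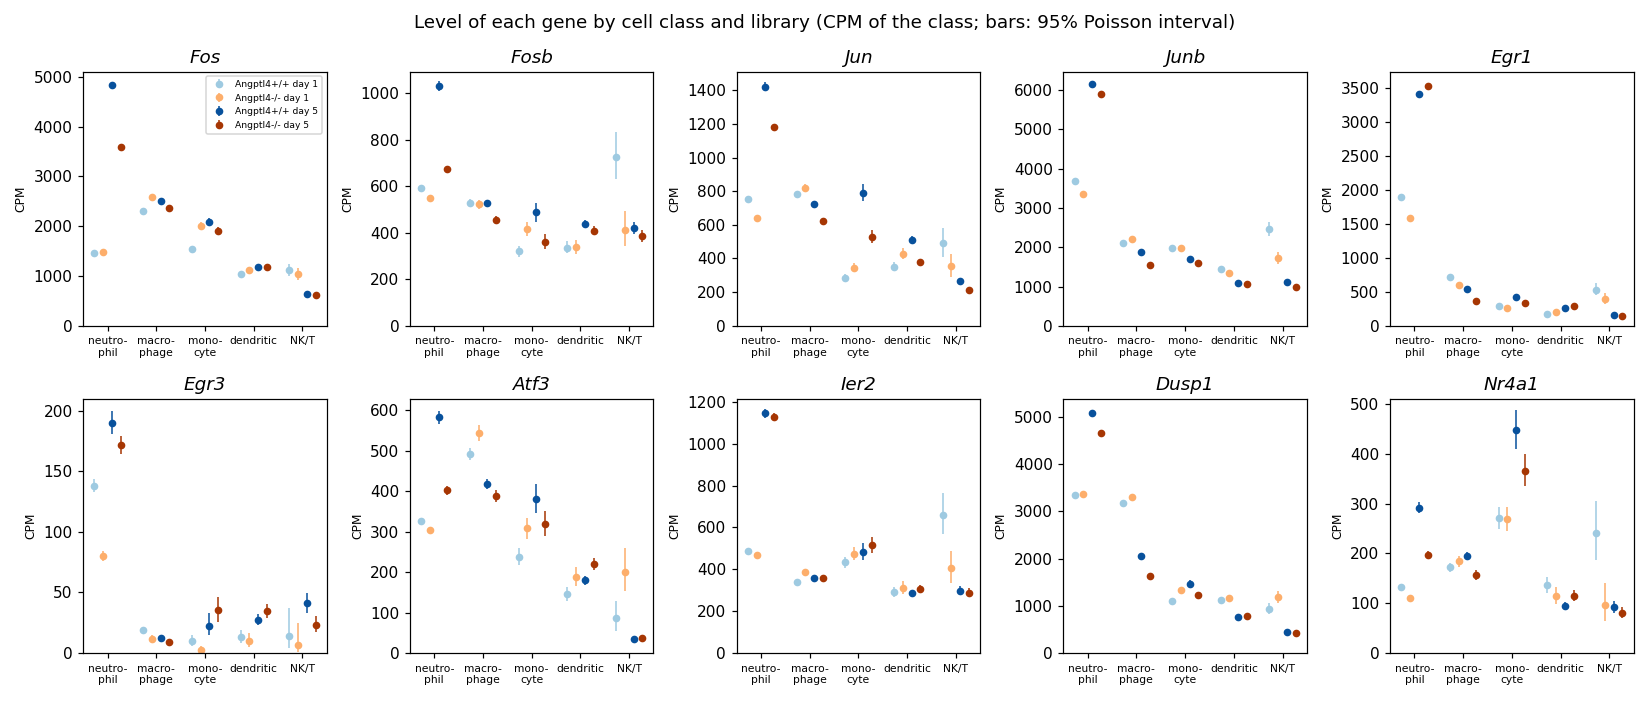
Level of each of the 10 genes (CPM, vertical axis, a separate linear scale from 0 for each gene) in 5 cell classes (horizontal axis), with 1 point per library and bars for the exact Poisson interval. Egr1 and Egr3 lie far higher in neutrophil-like cells than elsewhere, Nr4a1 is highest in monocyte-like cells, and Fos is higher in macrophage-like than in neutrophil-like cells at day 1 and lower at day 5.

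The comparison between time points asks how the 10 genes differed between early inflammation and the later wound. In neutrophil-like cells all 10 had a higher CPM at 5 dpw than at 1 dpw in both genotypes. Together they went from 12831 CPM (12781 to 12882) to 24159 CPM (24056 to 24263) in Angptl4+/+ wounds, a log2 ratio of 0.91 (0.90 to 0.92). In Angptl4-/- wounds they went from 11954 to 21435 CPM, a log2 ratio of 0.84 (0.83 to 0.85). This summed ratio was above 0 in all 6 neutrophil-like clusters of both genotypes, which were formed after the libraries were integrated. Without integration large neutrophil-like clusters divided by day. One held 1697 and 1446 cells of Angptl4+/+ and Angptl4-/- wounds at 1 dpw against 32 and 54 at 5 dpw, and another 99 and 71 against 1298 and 1642. Its size depended on scaling, since the profile of the class as a whole also shifted, as given next.

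A gene was called when it differed by at least 2-fold, among genes with at least 100 UMIs over the pair of libraries. In Angptl4+/+ neutrophil-like cells 3 of the 10 genes rose and 0 fell, where 30.8% of all 6624 genes tested rose and 1.84% fell. In Angptl4-/- cells 4 of 10 rose and 0 fell, where 32.9% of 6681 genes rose and 1.78% fell. The members' counts were therefore near the background. The median log2 ratio of all tested genes was 0.66 in Angptl4+/+ and 0.68 in Angptl4-/- cells, with 8 and 7 of the 10 genes above it. Among genes with at least 100 CPM on average, a floor chosen after the data were seen, the median was 0.21 and 0.27, and 9.05% and 10.7% of genes rose. All 10 genes were above that median in both genotypes.

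Under TMM scaling, which sets the bulk of genes level between libraries, the split of all genes became 6.17% higher and 10.3% lower in Angptl4+/+ cells and 7.42% and 9.58% in Angptl4-/- cells. The summed log2 ratio of the 10 genes then became 0.13 and 0.04, with 0 of 10 past 2-fold in either genotype. Several measured quantities moved with the day in this class. The neutrophil genes S100a8 and S100a9 together went from 169385 to 92719 CPM in Angptl4+/+ and from 186287 to 93882 CPM in Angptl4-/- cells. The nuclear RNA Malat1 went from 24974 to 34263 and from 23199 to 30134 CPM. Gm42418, a locus that overlaps ribosomal RNA sequence, went from 8947 to 22533 and from 7885 to 18594 CPM. Median UMIs per neutrophil-like cell were 4682.5 and 4637.5 at 1 dpw against 3219 and 3392.5 at 5 dpw. The part of these shifts in the ratios was not tested.

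Of the AP-1 genes, Fos had the largest ratio of the 10 in Angptl4+/+ cells. It rose from 1460.0 to 4836 CPM, a log2 ratio of 1.73 (1.71 to 1.75), and in Angptl4-/- cells from 1488 to 3588 CPM, a log2 ratio of 1.27 (1.25 to 1.29). Its ratio stayed above 0 under TMM scaling in both genotypes, at 0.94 in Angptl4+/+ cells. Jun was at 751 and 1421 CPM in Angptl4+/+ cells at 1 and 5 dpw and at 643 and 1180.3 CPM in Angptl4-/- cells, log2 ratios of 0.92 and 0.88. Junb, the other Jun family gene of the 10, was at 3695 and 6151 CPM and at 3345 and 5905 CPM, log2 ratios of 0.74 and 0.82. The Junb ratio in Angptl4+/+ cells turned to -0.05 under TMM scaling. Fosb was at 593 and 1032 CPM in Angptl4+/+ cells, a log2 ratio of 0.80, and at 551 and 672 CPM in Angptl4-/- cells, a log2 ratio of 0.29. The second of these turned to -0.52 under TMM scaling.

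Ier2 was the other gene past 2-fold in both genotypes. It rose from 489 to 1145 CPM in Angptl4+/+ cells, a log2 ratio of 1.23 (1.19 to 1.27), and from 469.8 to 1129 CPM in Angptl4-/- cells, a log2 ratio of 1.27 (1.23 to 1.30). Nr4a1 rose in Angptl4+/+ cells only by the 2-fold call, from 133 to 292 CPM, a log2 ratio of 1.13 (1.05 to 1.21). In Angptl4-/- cells Nr4a1 was at 111 and 198 CPM, a log2 ratio of 0.83 (0.75 to 0.92). Whether the genotypes differ in this could not be tested.

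The EGR genes passed the call in Angptl4-/- cells. Egr1 rose there from 1592 to 3539 CPM, a log2 ratio of 1.15 (1.13 to 1.17), and Egr3 from 80.1 to 171 CPM, a log2 ratio of 1.10 (1.00 to 1.19). In Angptl4+/+ cells Egr1 was at 1904 and 3416 CPM, a log2 ratio of 0.84, and Egr3 at 138 and 190.2 CPM, a log2 ratio of 0.46. The Egr3 ratio in Angptl4+/+ cells was -0.32 under TMM scaling. The lower day 1 level of both genes in Angptl4-/- cells entered these ratios, as the genotype comparison below shows.

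Atf3 and Dusp1 did not pass 2-fold in either genotype. Atf3 was at 326 and 583 CPM in Angptl4+/+ cells, a log2 ratio of 0.84, and at 304 and 402 CPM in Angptl4-/- cells, a log2 ratio of 0.40. Dusp1, which feeds back on the kinases that induce the other genes, was at 3342 and 5093 CPM and at 3371 and 4651 CPM, log2 ratios of 0.61 and 0.46. Under TMM scaling Dusp1 was at -0.18 and -0.34 in the 2 genotypes, and Atf3 at -0.40 in Angptl4-/- cells.

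**Figure D2:**
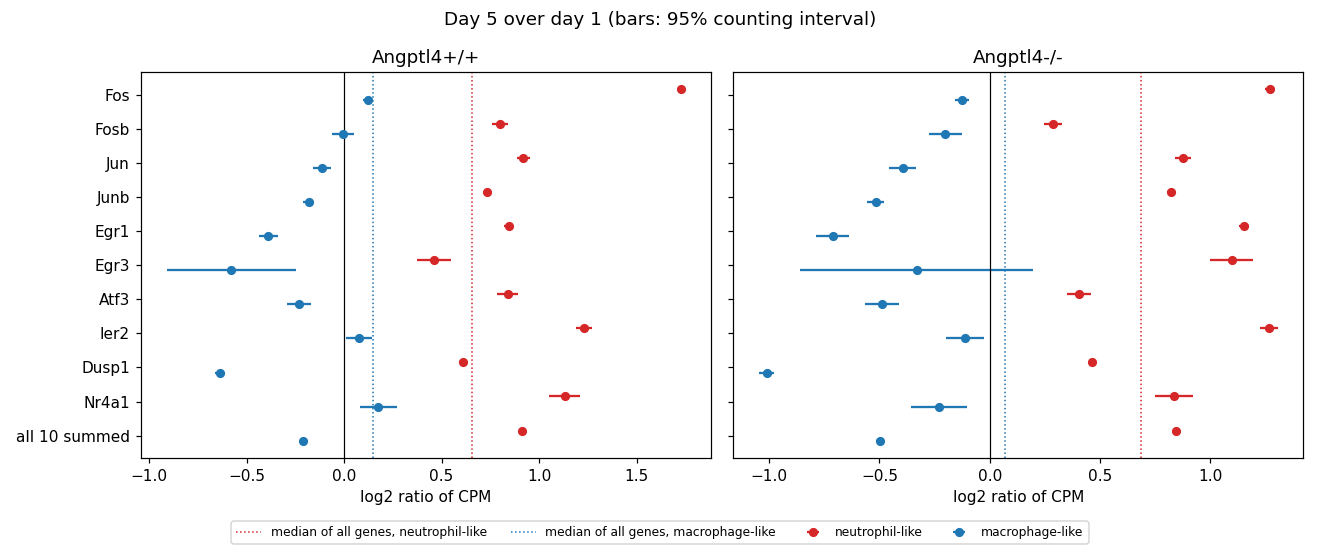
Log2 ratio of CPM, day 5 over day 1 (horizontal axis), of each gene and of the 10 summed, in neutrophil-like and macrophage-like cells of Angptl4+/+ (left) and Angptl4-/- wounds (right), with bars for the counting interval and dotted lines at the median of all tested genes. The neutrophil-like points lie right of 0 on this scale, around their median line, and turn negative under TMM scaling for Junb, Egr3 and Dusp1 in Angptl4+/+ and for Fosb, Atf3 and Dusp1 in Angptl4-/- cells. Most macrophage-like points lie left of 0.

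The neutrophil-like class was not uniform. The cluster led by Pglyrp1, Ly6g, Ngp and Mmp8 (cluster 0), genes of granule-rich neutrophils, had the highest summed ratio, from 12096 to 30018 CPM in Angptl4+/+ cells, a log2 ratio of 1.31 (1.30 to 1.33). In Angptl4-/- cells it went from 11063 to 26882 CPM, a log2 ratio of 1.28. The interferon gene cluster led by Ifit3b and Ifit1 (cluster 4) followed with 1.16 and 0.96. The cluster led by Csf1 (cluster 1) had the lowest ratios, 0.41 and 0.32. In 11 of 12 cluster and genotype combinations the summed ratio was above the median gene of that cluster, the exception being cluster 1 of Angptl4-/- wounds at 0.32 against 0.36.

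Within clusters the single genes ranged widely. Fos, Jun, Junb and Ier2 were above 0 in all 6 clusters of both genotypes. Egr1 was too, but in cluster 7 of Angptl4+/+ wounds its ratio of 0.0081 had an interval of -0.088 to 0.104 and lay below the median gene of that cluster, at 0.136. The Fos ratio ranged from 1.07 to 2.18 in Angptl4+/+ clusters and was lower, 0.54 to 1.77, in Angptl4-/- clusters. Egr3 ranged from -0.61 to 1.37 in Angptl4+/+ clusters, above 0 in 4 of 6, and from 0.34 to 1.91 in Angptl4-/- clusters, above 0 in 6 of 6. Atf3 went from 91.6 to 429 CPM in cluster 0 of Angptl4+/+ wounds and from 57.4 to 258.8 CPM in that of Angptl4-/- wounds, log2 ratios of 2.23 and 2.17. In the other clusters its Angptl4-/- ratio was as low as -0.31.

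A small cluster of 686 cells (cluster 7) had Egr3 among its leading genes, with Siglecf. It held 399 CPM of Egr3 over all libraries, against 91.8 to 186 CPM in the other neutrophil-like clusters, and 21992 CPM of the 10 genes together. Because the cells were grouped on genes that go with this pattern, these levels are a description and not a test. Leaving the cluster out changed the summed neutrophil-like ratio of Angptl4+/+ wounds only from 0.91 to 0.93.

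**Figure D3:**
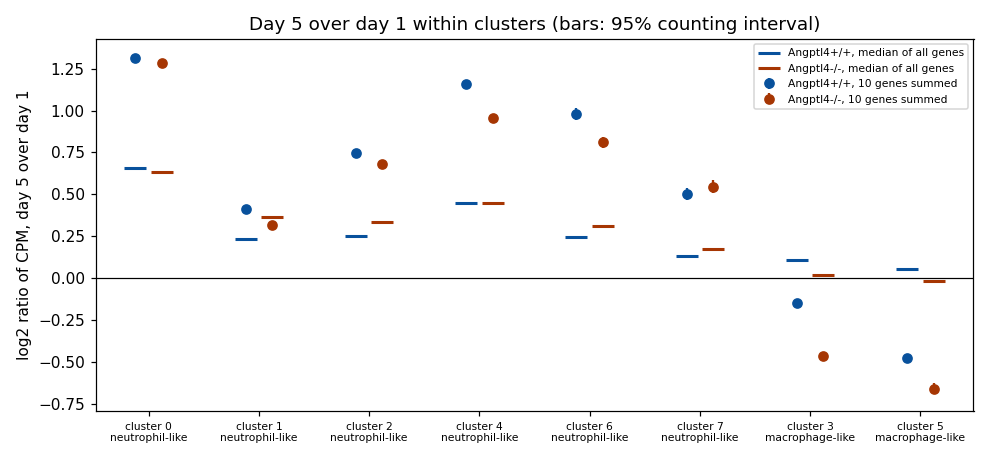
Log2 ratio of the summed CPM of the 10 genes, day 5 over day 1 (vertical axis), in the 6 neutrophil-like and 2 macrophage-like clusters (horizontal axis) of both genotypes, with the median of all tested genes of each cluster as a short line and bars for the counting interval. The neutrophil-like points lie between 0.32 and 1.31 and the macrophage-like points between -0.66 and -0.15, on the CPM scale.

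In macrophage-like cells the summed CPM of the 10 genes went the other way. They stood at 10654 CPM at 1 dpw and 9204 CPM at 5 dpw in Angptl4+/+ wounds, a log2 ratio of -0.21 (-0.22 to -0.20). In Angptl4-/- wounds they stood at 11149 and 7893 CPM, a log2 ratio of -0.50 (-0.52 to -0.48). Singly, 3 genes were above 0 and 7 below in Angptl4+/+ cells, and 0 and 10 in Angptl4-/- cells. Dusp1 weighed heavily in the sum. It held 29.8% and 22.2% of the summed UMIs at 1 and 5 dpw in Angptl4+/+ cells, and 29.6% and 20.7% in Angptl4-/- cells. The median gene of the class was at 0.15 and 0.07, and 9 and 10 of the 10 genes were at or below it. By the 2-fold call 0 genes rose or fell in Angptl4+/+ cells, where 5.99% of 8679 genes rose and 4.16% fell. In Angptl4-/- cells 0 rose and 1 fell, where 4.1% of 7660 genes rose and 3.36% fell. TMM scaling gave splits of 4.25% higher and 5.32% lower and of 2.98% and 4.27%, with summed ratios of -0.35 and -0.60.

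Dusp1 was the gene that fell in Angptl4-/- macrophage-like cells, from 3296 to 1635 CPM, a log2 ratio of -1.01 (-1.05 to -0.98). In Angptl4+/+ cells it was at 3179 and 2045 CPM, a log2 ratio of -0.64 (-0.66 to -0.61). Egr1 was at 715 and 546 CPM in Angptl4+/+ and at 601 and 367 CPM in Angptl4-/- cells, log2 ratios of -0.39 and -0.71. Junb was at 2117 and 1867 CPM and at 2209.5 and 1544 CPM, log2 ratios of -0.18 and -0.52. All 3 ratios were below 0 in both macrophage-like clusters of both genotypes.

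Fos hardly differed between the days in macrophage-like cells, at 2309.9 and 2512 CPM in Angptl4+/+ and 2577 and 2362 CPM in Angptl4-/- wounds, log2 ratios of 0.12 and -0.13. The first of these turned to -0.02 under TMM scaling. The ratios of Fosb, Jun, Atf3, Ier2 and Nr4a1 lay between -0.23 and 0.18 in Angptl4+/+ and between -0.49 and -0.11 in Angptl4-/- cells. Egr3 was close to the floor of the data, at 18.7 and 12.5 CPM and at 11.7 and 9.29 CPM, and its Angptl4-/- ratio of -0.33 (-0.86 to 0.20) included 0. Macrophage-like cells of Angptl4+/+ wounds had medians of 6846 UMIs at 1 dpw and 8112 at 5 dpw, those of Angptl4-/- wounds 5780 and 11235.5, and the part of depth was not tested. With every cell thinned to 1000 UMIs, the summed Angptl4-/- ratio was -0.59.

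The smaller classes gave no single picture. In monocyte-like cells Jun rose in Angptl4+/+ wounds from 283 to 790.2 CPM, a log2 ratio of 1.48 (1.33 to 1.63), 1 of 9 genes tested against 2.2% of all genes. In Angptl4-/- wounds Jun was at 343 and 528 CPM, a log2 ratio of 0.62, and 0 of 9 genes passed 2-fold. The summed monocyte-like ratios were 0.36 and -0.04. Nr4a1, highest in this class, had ratios of 0.73 (0.56 to 0.90) and 0.45 (0.27 to 0.63).

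In dendritic cell-like cells Egr3 rose in both genotypes, from 13.1 to 27.3 CPM in Angptl4+/+ and from 9.65 to 34.3 CPM in Angptl4-/- wounds, log2 ratios of 1.06 (0.44 to 1.73) and 1.83 (1.04 to 2.74). It was 1 of 10 genes in each case, against 1.63% and 1.15% of all genes. TMM scaling moved the split of all genes from 1.63% higher and 3.39% lower to 2.11% and 2.66% in Angptl4+/+ cells, and from 1.15% and 1.97% to 1.68% and 1.47% in Angptl4-/- cells. With every cell given the same weight, the Egr3 ratio of Angptl4+/+ cells was -0.01. Junb and Dusp1 were lower at 5 dpw in both genotypes without passing 2-fold, at -0.40 and -0.32 for Junb and -0.56 and -0.58 for Dusp1.

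NK cell/T cell-like cells had the widest spread, with 36 cells at 1 dpw in either genotype against 226 and 220 at 5 dpw. The 10 genes together fell from 7275 to 3517 CPM in Angptl4+/+ wounds, a log2 ratio of -1.05 (-1.12 to -0.98), and were at 5819.7 and 3216 CPM in Angptl4-/- wounds, a log2 ratio of -0.86. In Angptl4+/+ cells 6 of 10 genes fell, against 8.21% of all genes, and 1 rose, against 9.58%. The make-up of the class also differed between the days. Its T cell gene cluster, led by Cd3g, had 26 and 19 cells of Angptl4+/+ and Angptl4-/- wounds at 1 dpw and 108 and 122 at 5 dpw, and its cluster led by Gzma and cell cycle genes 10 and 17 against 118 and 98. The part of this shift in the ratios was not tested. The genes that fell in Angptl4+/+ cells were Junb, Egr1, Atf3, Ier2, Dusp1 and Nr4a1, with Egr1 going from 532 to 159.7 CPM, a log2 ratio of -1.74 (-2.01 to -1.45). Egr3 rose from 14.4 to 40.9 CPM, with a wide interval of 0.10 to 3.41 about 1.51. In Angptl4-/- cells Egr1, Atf3 and Dusp1 fell, 3 of 9 genes tested against 5.94%. Under TMM scaling 3 genes fell in each genotype, and the Angptl4+/+ split of all genes became 13.3% higher and 5.83% lower.

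Set side by side within a library, the 10 genes made up a smaller share of UMIs in macrophage-like than in neutrophil-like cells. The gap was small at 1 dpw and larger at 5 dpw. Macrophage-like cells held more UMIs in each of the 4 libraries, with medians of 6846 against 4682.5 in Angptl4+/+ wounds at 1 dpw. Unscaled UMIs of the 10 genes per cell were not compared. At 1 dpw the log2 ratio of the sums was -0.27 with and -0.10 without Angptl4, and at 5 dpw it was -1.39 and -1.44. At 1 dpw 2 of 10 genes, Egr1 and Egr3, were at least 2-fold lower, against 9.59% and 10.2% of all genes in Angptl4+/+ and Angptl4-/- wounds. At 5 dpw 5 of 10, Junb, Egr1, Egr3, Ier2 and Dusp1, were lower, against 12.1% and 14.3%. In each of the 4 libraries 0 of the 10 were at least 2-fold higher and all 10 lay below the median gene, which was at 1.41, 1.42, 0.92 and 0.83. TMM scaling moved the Angptl4+/+ split at 1 dpw from 59.2% higher and 9.59% lower to 30.0% and 29.1%, and the summed ratios to -1.70, -1.69, -2.08 and -2.32.

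The Egr3 ratio of macrophage-like over neutrophil-like cells was -2.88 and -2.78 at 1 dpw and -3.92 and -4.20 at 5 dpw in Angptl4+/+ and Angptl4-/- wounds. For Egr1 it was -1.41, -1.40, -2.65 and -3.27. RNA free in the droplets gives every class some UMIs of abundant genes. S100a8 and S100a9, which macrophages make little of, stood in macrophage-like cells at 5.81% and 4.84% of their neutrophil-like level at 1 dpw and at 1.79% and 1.87% at 5 dpw. Egr3 stood at 13.6%, 14.6%, 6.59% and 5.42% of its neutrophil-like level, and Egr1 at 37.5%, 37.8%, 16.0% and 10.4%. Both genes were thus above the level of the neutrophil genes in all 4 libraries, and the part of free RNA in the remaining Egr3 signal was not tested.

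The comparison of genotypes asks whether loss of Angptl4 went with a different level of these genes. By the 2-fold call 0 of 10 genes rose or fell in neutrophil-like or macrophage-like cells on either day. At 1 dpw 0.309% of all genes rose and 0.649% fell in neutrophil-like cells, and 0.259% and 0.402% in macrophage-like cells. At 5 dpw these shares were 0.565% and 0.579% in neutrophil-like cells, moving to 0.624% and 0.401% under TMM scaling, and 0.443% and 0.746% in macrophage-like cells. The summed log2 ratio of Angptl4-/- over Angptl4+/+ cells was -0.10 at 1 dpw and -0.17 at 5 dpw in neutrophil-like cells, where the median gene was at -0.09 and -0.07. In macrophage-like cells it was 0.07 and -0.22, where the median gene was at 0.02 and -0.03.

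Egr3 had the largest genotype ratio at 1 dpw in both classes. Neutrophil-like cells had 138 CPM (133 to 143) with Angptl4 present and 80.1 CPM (76.0 to 84.3) in its absence, a log2 ratio of -0.79 (-0.88 to -0.69). In macrophage-like cells it was at 18.7 and 11.7 CPM, a log2 ratio of -0.68 (-1.12 to -0.26). Egr1 was at -0.26 and -0.25 in the 2 classes. The other 8 genes lay between -0.26 and 0.03 in neutrophil-like cells and between -0.02 and 0.18 in macrophage-like cells. With 1 library per genotype a difference between mice, their sources, wounds or preparations cannot be told apart from one between genotypes. The paper names a different supplier for each genotype.

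At 5 dpw the largest ratio was that of Fosb in neutrophil-like and that of Egr1 in macrophage-like cells. In neutrophil-like cells Fosb was at 1032 CPM in Angptl4+/+ and 672 CPM in Angptl4-/- wounds, a log2 ratio of -0.62 (-0.66 to -0.58). Nr4a1, at 292 and 198 CPM, and Atf3, at 583 and 402 CPM, had ratios of -0.56 and -0.54, and Fos, at 4836 and 3588 CPM, a ratio of -0.43. Egr1, Junb and Ier2 lay within 0.06 of 0. In macrophage-like cells all 10 ratios were below 0, from -0.01 for Ier2 to -0.57 (-0.64 to -0.51) for Egr1, which was at 546 and 367 CPM. The intervals of Egr3 and Ier2 included 0, and the Ier2 ratio was 0.00 under TMM scaling. In no case did a gene reach 2-fold.

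**Figure D4:**
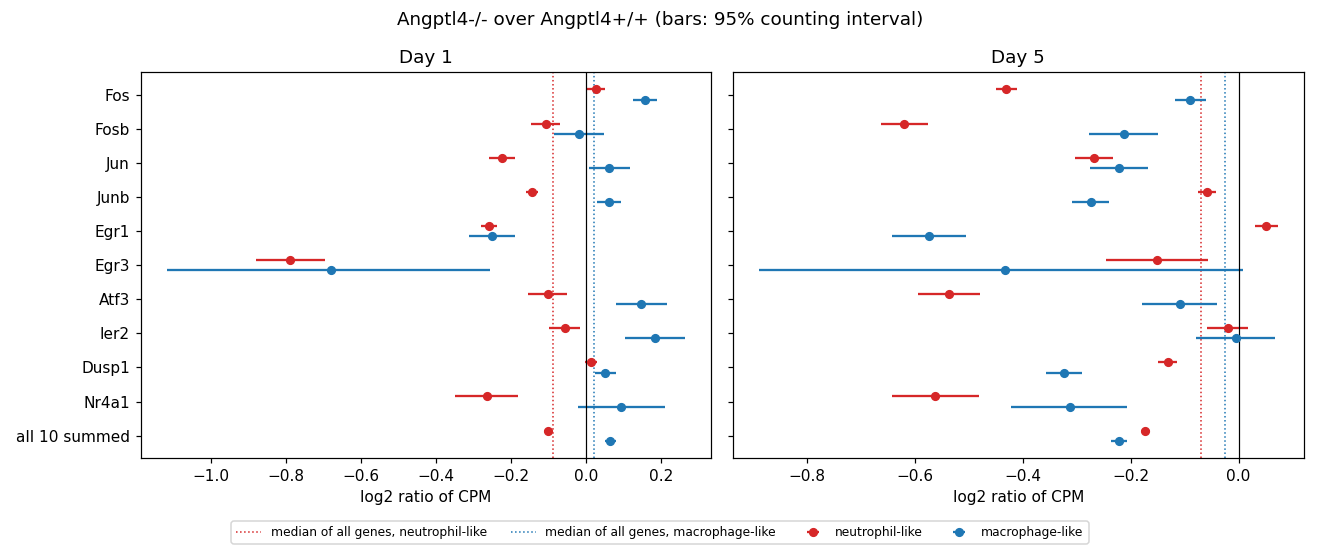
Log2 ratio of CPM, Angptl4-/- over Angptl4+/+ (horizontal axis), of each gene and of the 10 summed, at day 1 (left) and day 5 (right) in neutrophil-like and macrophage-like cells, with bars for the counting interval and dotted lines at the median of all tested genes. The Egr3 points lie leftmost at day 1, at -0.79 and -0.68, and Fosb, Nr4a1, Atf3 and Fos lie furthest left among the neutrophil-like points at day 5.

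Cell by cell, the summed signal was spread over the neutrophil-like and macrophage-like classes and not held by a few cells. Each cell was thinned to 1000 UMIs so that detection was compared at equal UMIs, which left out 442 shallower cells. The thinned sum was still lower in cells with more deposited UMIs, at Pearson correlations of -0.245 to -0.080 in neutrophil-like cells. In macrophage-like cells these were -0.273 to -0.091, and the part of depth was not tested. At least 3 of the 10 genes were then found in 93.7% and 90.4% of neutrophil-like cells of Angptl4+/+ and Angptl4-/- wounds at 1 dpw and in 98.2% (97.6 to 98.7, exact Clopper-Pearson) and 97.1% (96.5 to 97.7) at 5 dpw. In macrophage-like cells these shares were 89.4%, 91.1%, 84.0% (81.9 to 85.9) and 74.9% (71.1 to 78.4). Dendritic cell-like cells had 51.7% to 56.4% and NK cell/T cell-like cells 30.6% to 66.7%. A median neutrophil-like cell held 12 UMIs of the 10 genes in either genotype at 1 dpw, and 24 and 20 at 5 dpw. The tenth of neutrophil-like cells with the most UMIs held 19.2% to 22.0% of them in the 4 libraries.

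Junb and Dusp1 were each found in 88.9% to 95% of thinned neutrophil-like cells over the 4 libraries. Egr3 was found in 7.12% to 15.4% of these cells and in 0.344% to 1.23% of macrophage-like cells. Fos was found in 60.9% and 60.0% of neutrophil-like cells at 1 dpw and in 81.3% and 74.5% at 5 dpw in Angptl4+/+ and Angptl4-/- wounds. Macrophage-like cells with Fos made up 81.5%, 82.2%, 85.5% and 78.3% in the same order. The share of cells with Egr1 was 70.6%, 64.2%, 82.6% and 82.6% in neutrophil-like cells, and 38.3%, 34.5%, 32.1% and 20.5% in macrophage-like cells.

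**Figure D5:**
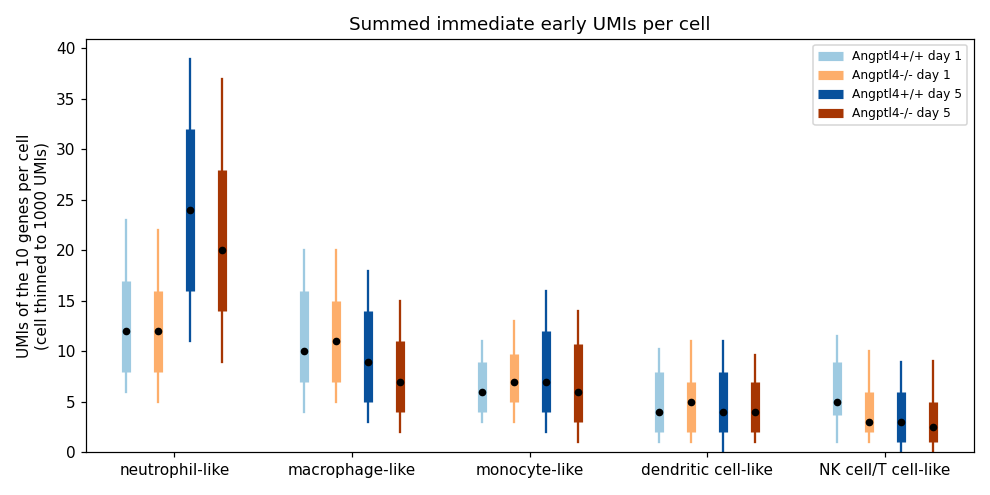
UMIs of the 10 genes per cell after thinning to 1000 UMIs (vertical axis) in 5 cell classes and 4 libraries, with the median as a dot, the 25th to 75th percentile as a thick bar and the 10th to 90th percentile as a thin line. The neutrophil-like median is 12 at day 1 in both genotypes and 24 and 20 at day 5, while the macrophage-like median goes from 10 and 11 to 9 and 7.

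Pairs of the genes went together only loosely among cells of a class, which is given as a description since cells share a library and counts are sparse. In neutrophil-like cells Fos and Fosb had Pearson correlations of 0.215 to 0.356 and Spearman of 0.168 to 0.375 over the 4 libraries, and Fos and Dusp1 0.210 to 0.294 and 0.204 to 0.316. Jun and Atf3 gave 0.088 to 0.302 by Pearson and 0.082 to 0.295 by Spearman, while Fos and Jun, partners in AP-1, gave 0.003 to 0.068 by Pearson. The summed UMIs of the 10 genes and those of 12 heat shock genes, often used as signs of dissociation stress, correlated at -0.085 to 0.135 in neutrophil-like and -0.073 to 0.092 in macrophage-like cells. With 36 related fast-response genes the values were 0.235 to 0.424 and 0.328 to 0.510.

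The related fast-response genes were read as a list chosen with the genes themselves, holding other AP-1, KLF, NR4A, DUSP and NF-kB feedback genes. In neutrophil-like cells 11 of 33 tested rose between 1 and 5 dpw and 1 fell in Angptl4+/+ wounds (30.8% and 1.84% of all genes), with a median log2 ratio of 0.57 against 0.66 for all genes. In Angptl4-/- wounds 9 rose and 1 fell (32.9% and 1.78% of all genes), with a median of 0.60 against 0.68. Fosl1, another AP-1 gene, was the one that fell in both, from 83.8 to 16.8 CPM and from 68.9 to 12.04 CPM, log2 ratios of -2.32 and -2.52. Dusp2, a nuclear MAP kinase phosphatase, rose from 16.6 to 70.0 CPM in Angptl4+/+ cells, and Socs3, a brake on cytokine signalling, from 326 to 984 CPM in Angptl4-/- cells.

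In macrophage-like cells more of the list fell than rose. Of 35 tested, 11 fell and 1 rose in Angptl4+/+ wounds, where 4.16% of all genes fell and 5.99% rose. The median log2 ratio was -0.39 against 0.15 for all genes. Of 34 tested in Angptl4-/- wounds, 7 fell and 1 rose, where 3.36% of all genes fell and 4.1% rose. The median there was -0.54 against 0.07. Phlda1 fell from 291 to 60.7 CPM and from 269 to 71.3 CPM in the 2 genotypes. Dusp4, a phosphatase of the same family as Dusp1, fell from 12.7 to 1.80 CPM in Angptl4+/+ and Dusp5 from 181 to 63.3 CPM in Angptl4-/- cells. The summed list had log2 ratios of -0.61 and -0.58, lower than the 10 genes in both genotypes.

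Between genotypes the related list held few calls. In neutrophil-like cells at 1 dpw Nr4a2, a close relative of Nr4a1, was lower in Angptl4-/- wounds, at 9.06 against 22.3 CPM. Its log2 ratio was -1.30 (-1.57 to -1.04), and it was 1 of 33 tested, where 0.649% of all genes were lower. At 5 dpw 0 of 33 passed 2-fold, where 0.565% of all genes were higher and 0.579% lower. In macrophage-like cells at 5 dpw Dusp2 was higher, at 48.0 against 21.2 CPM, 1 of 35 against 0.443% of all genes. At 1 dpw 0 of 34 passed in that class, where 0.259% of all genes were higher and 0.402% lower.

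Partners of these genes and factors and kinases upstream of them were counted the same way. Of 17 tested in neutrophil-like cells, 2 rose and 1 fell between the days in both genotypes, where 30.8% and 32.9% of all genes rose and 1.84% and 1.78% fell. Those that rose were Batf, a partner of Jun proteins, and Elk3, an ETS factor of the serum response, at log2 ratios of 1.55 and 1.58 in Angptl4+/+ and 1.5 and 1.20 in Angptl4-/- cells. The one that fell was Crem, a cAMP-responsive regulator, from 292 to 126 CPM and from 287 to 138 CPM. In macrophage-like cells 1 of 19 rose and 2 fell in Angptl4+/+ wounds, and 2 rose and 1 fell in Angptl4-/- wounds, where 5.99% and 4.1% of all genes rose and 4.16% and 3.36% fell. Batf3 rose in both genotypes, with log2 ratios of 2.55 and 2.82, and Crem fell in both, with -1.78 and -1.14, joined by Jdp2 in Angptl4+/+ and by a rise of Batf in Angptl4-/- cells.

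The heat shock genes gave a measure of cell stress beside the 10 genes. As a sum they stood at 1464 and 1302 CPM in neutrophil-like cells of Angptl4+/+ and Angptl4-/- wounds at 1 dpw and at 2039 and 2052 CPM at 5 dpw, log2 ratios of 0.48 and 0.66. Of 10 tested, 3 and 4 rose and 0 fell, near the 30.8% and 32.9% of all genes that rose, with Hspe1 and Hspd1, mitochondrial chaperonins, at log2 ratios of 2.40 and 2.15 in Angptl4+/+ and 2.51 and 2.04 in Angptl4-/- cells. In macrophage-like cells the sum was 3549 and 3633 CPM at 1 dpw and 3993 and 4424 CPM at 5 dpw, log2 ratios of 0.17 and 0.28, where the 10 genes were lower at 5 dpw. Single heat shock genes moved further. Of 12 and 11 tested there, 2 and 1 rose and 0 fell, where 5.99% and 4.1% of all genes rose. The largest log2 ratios were 6.24 in Angptl4+/+ and 1.21 in Angptl4-/- cells. Each is the value of 1 gene, given here without its name, UMIs or interval, and the 2 need not be the same gene. A ratio as large as the first can rest on few UMIs at 1 dpw. Under TMM scaling all neutrophil-like ratios of this contrast move by the shift of the median gene, from 0.66 to -0.13 and from 0.68 to -0.12, which turns the summed heat shock and related ratios below 0. Between genotypes, 1 of 12 heat shock genes was at least 2-fold lower in Angptl4-/- macrophage-like cells at 5 dpw, at a log2 ratio of -2.83. Of all genes 0.746% were lower there. The part of dissociation in any of these ratios was not tested.

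Markers of other cells that the CD45+ gate could let through were counted too. Over the 4 libraries keratinocyte markers summed to 0.2 to 3.6 CPM and fibroblast markers to 2.4 to 6.6 CPM in neutrophil-like cells. Red cell markers were at 0.3 to 3.7 CPM in 3 libraries and at 1309 CPM in Angptl4-/- wounds at 5 dpw, where mast cell markers were at 137 CPM. Endothelial cell markers were at 10.2 to 18.1 CPM in neutrophil-like cells. In macrophage-like cells they were at 88.0 and 108 CPM at 1 dpw and at 35.4 and 42.0 CPM at 5 dpw in Angptl4+/+ and Angptl4-/- wounds. The same markers, Pecam1, Cdh5 and Kdr, were at 35.2 to 92.0 CPM in dendritic cell-like and 49.4 to 79.1 CPM in NK cell/T cell-like cells. Whether they came from endothelial cells, and their part in the ratios, was not tested. Leaving out the cells of any class with over 10 red cell or over 10 mast cell marker UMIs changed none of the calls. Among them were 5 neutrophil-like cells, all of Angptl4-/- wounds at 5 dpw.

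Outside all the lists, the 5 genes whose levels ran most like the summed level of the 10 over 18 class and library points were Neat1, Osm, Ccr1, Ptp4a1 and Ypel5. Their Pearson correlations on the log2 scale were 0.970, 0.967, 0.965, 0.965 and 0.963. They were picked for this likeness, and the points share libraries and classes, so the values are a description. Neat1, a nuclear long non-coding RNA, ranged from 288 to 4072 CPM over the points, Osm, the cytokine oncostatin M, from 26.4 to 1015 CPM and Ccr1, a chemokine receptor, from 45.6 to 1975 CPM.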

How the data were processed

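Live CD45+ cells of wounds were sorted and captured with the 10x Genomics 3' v3 kit. Per the submitters' processing notes, the authors used Cell Ranger 3.1.0, the mouse build mm10 and Seurat 3.0, and they deposited raw UMI counts per gene and barcode, 1 matrix for each of 4 libraries. Whether introns were counted is not given in the sources used here. Median UMIs per passing cell were 4975.5 and 3873 in Angptl4+/+ and 4814.5 and 3735.5 in Angptl4-/- libraries at 1 and 5 dpw.

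Barcodes with at least 200 genes and at most 10% mitochondrial UMIs were kept (19827 passed, 242 failed). Libraries were joined by anchors in Seurat (5.3.0, R 4.3.3) on 2000 variable genes and 30 dimensions and clustered by the Louvain method at resolution 0.5. The 58 genes of the 10 genes, the related fast-response list and the heat shock list did not enter the variable genes. The names of clusters came from the mean log2 level of fixed markers over the mean of all clusters (5 CPM added). This equal weighting of clusters was adopted after the first clusters were seen. Scrublet's automatic threshold marked 0 to 3 cells per library, so the top 4% by score (794 cells) were taken as doublets and kept, except in an alternative.

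UMIs were summed per class and library and divided by the UMIs of the class (CPM). With 1 library per condition no test was run and no replicate spread exists. Intervals are exact Poisson for levels, exact Clopper-Pearson for shares and exact conditional binomial for ratios, at 95%. They cover counting error only. A call is a 2-fold ratio among genes with at least 100 UMIs over both libraries. TMM factors came from edgeR (4.0.16). The ratio and its interval were tested on simulated counts, and the other intervals were not. The genes named are the 10 members, Angptl4 and the 5 most alike genes. From each list, genes were named from among the 3 with the largest ratio in a class and contrast. Other genes, such as those that lead clusters, were named after their values were seen. The members and lists were chosen with earlier results of these data known. In all, 13 alternatives were run, 3 of them chosen after seeing the data.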

Additional observations from a re-analysis of the deposited data

Results flagged for a closer look

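The CPM ratio of day 5 over day 1 had opposite signs in neutrophil-like and macrophage-like cells for the 10 genes summed and for many of them singly. Median UMIs per cell also moved in opposite directions. In Angptl4-/- wounds they went from 4637.5 to 3392.5 in neutrophil-like and from 5780 to 11235.5 in macrophage-like cells. Unscaled UMIs of the 10 genes per cell were not compared. With 1 library per group the difference between the classes was not tested. In Angptl4+/+ wounds the log2 ratio of the sum was 0.91 in neutrophil-like and -0.21 in macrophage-like cells. The single genes gave 0.92 and -0.11 for Jun, 0.74 and -0.18 for Junb, and 0.84 and -0.39 for Egr1. Egr3 gave 0.46 and -0.58, Atf3 0.84 and -0.23, and Dusp1 0.61 and -0.64.

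In Angptl4-/- wounds the sum was at 0.84 and -0.50. Fos gave 1.27 and -0.13, Fosb 0.29 and -0.20, Jun 0.88 and -0.39, and Junb 0.82 and -0.52. Egr1 gave 1.15 and -0.71, Atf3 0.40 and -0.49, Ier2 1.27 and -0.11, Dusp1 0.46 and -1.01, and Nr4a1 0.83 and -0.23. On the TMM scale the neutrophil-like ratio was itself below 0 for Junb, Egr3 and Dusp1 in Angptl4+/+ wounds and for Fosb, Atf3 and Dusp1 in Angptl4-/- wounds. The sum kept opposite signs under TMM scaling, at 0.13 and -0.35 in Angptl4+/+ wounds and, close to 0 in neutrophil-like cells, at 0.037 and -0.60 in Angptl4-/- wounds.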

How the results depend on the processing

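No paired analysis was possible because each condition has 1 library and the labels carry no replicate numbers, and for the same reason no replicate could be left out. The summed log2 ratios of neutrophil-like and macrophage-like cells kept their sign under the 11 alternatives that recompute ratios. Each of these works on shares of UMIs, so unscaled UMIs per cell were not compared. The sizes of the ratios moved as follows, and the cause was not tested. Values are in the order Angptl4+/+ then Angptl4-/- for days, 1 then 5 dpw for Angptl4-/- over Angptl4+/+, and Angptl4+/+ at 1 and 5 dpw then Angptl4-/- at 1 and 5 dpw for macrophage-like over neutrophil-like cells. TMM scaling gave 0.13 and 0.037 between days in neutrophil-like cells, with 0 and 0 of 10 genes past 2-fold, and -0.35 and -0.60 in macrophage-like cells. Between genotypes it gave -0.0094 and -0.075 in neutrophil-like cells and 0.0485 at 1 dpw in macrophage-like cells, and between classes -1.70, -2.08, -1.69 and -2.32. Centring on the median gene gave 0.26 and 0.16 with 1 and 0 genes past 2-fold, -0.36 and -0.57, then -0.014 and -0.10, 0.045 and -0.20, and -1.68, -2.31, -1.52 and -2.27. The mean of per-cell CPM gave 0.86 and 0.77, -0.27 and -0.60 with 2 genes lower in Angptl4-/- macrophage-like cells, -0.085 at 1 dpw in neutrophil-like cells, 0.040 and -0.29 in macrophage-like cells, and -0.18, -1.32 and -0.060 between classes for the first 3 libraries. It turned the Egr3 ratio between days in Angptl4+/+ dendritic cell-like cells from 1.06 to -0.0081. Thinning to 1000 UMIs gave 0.86 and 0.78, -0.59 with 2 genes lower in Angptl4-/- macrophage-like cells, -0.088 at 1 dpw in neutrophil-like cells, 0.043 and -0.33 with 1 gene lower at 5 dpw in macrophage-like cells, and between classes -0.22 and -1.30 for Angptl4+/+ libraries and -1.46 for Angptl4-/- wounds at 5 dpw. In macrophage-like cells the ratios between days were -0.17 and -0.47 with at most 5% mitochondrial UMIs (0 genes lower), -0.26 and -0.53 without doublets (1 gene lower in Angptl4+/+ cells), -0.33 and -0.57 at resolution 1.0, -0.24 without integration in Angptl4+/+ cells, and -0.24 and -0.52 with the genes kept for clustering. Their genotype ratio was 0.025 at 1 dpw at resolution 1.0 and -0.21 at 5 dpw without doublets. Between classes these settings gave -1.36 and -1.41 at 5 dpw with the mitochondrial limit, -0.28, -1.44 and -1.48 without doublets, -0.20, -1.44, -0.076 and -1.49 at resolution 1.0, and -1.43, -0.12 and -1.48 both without integration and with the genes kept. The remaining 3 alternatives were chosen after seeing the data. Leaving out cluster 7 gave 0.93 between days in Angptl4+/+ and -0.19 between genotypes at 5 dpw in neutrophil-like cells, and -0.25, -0.087 and -1.42 between classes. Leaving out cells with red cell or mast cell markers, a floor of 100 CPM and, of the planned ones, a floor of 20 UMIs changed none of these results by more than their error. Apart from TMM scaling, the counts of genes past 2-fold here stand without the share of all genes and are not read against it. Depth limits Egr3 most, at under 20 CPM in macrophage-like cells.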
